A study of Mus musculus with 10 samples.

Results

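The cytosolic ribosomal protein genes encode the protein subunits of the ribosome that translates nuclear mRNAs. They were taken from the RNA-seq counts of whole interscapular brown adipose tissue (iBAT) by symbol: protein-coding genes named Rpl or Rps followed by a digit, together with Rplp0, Rplp1, Rplp2 and Rpsa, without the Rps6k kinases, Rps19bp1 and symbols with "-ps", and with a mean above 1 CPM (reads counted on a gene, scaled to the library total). Of 85 genes that met the rule by name, 83 passed the minimum, out of 13739 genes that passed it and 41249 gene identifiers in all. Rpl10l had 0 counts in all 10 mice and Rps27rt had 6 counts in total, so neither was tested. The 83 genes comprised 31 proteins of the small (40S) subunit, 46 of the large (60S) subunit and 6 paralogues, which are related genes named after a parent: Rpl3l, Rpl7l1, Rpl22l1, Rpl36al, Rpl39l and Rps27l. They were spread over 19 chromosomes, with 14 on chromosome 7 and 4 on X.

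The compared groups were 5 mice each of whole-body Axl KO and wild-type (WT) genotype, 1 library per mouse. All 10 received HFD for 24 weeks, starting at an age of 6 to 8 weeks, and the paper's legend describes these mice as male. AXL is a receptor tyrosine kinase that binds GAS6, and the study asked how its loss alters brown fat. The Axl KO allele is a constitutive "knockout-first" insertion present in every cell from the embryo onward, so a value in iBAT cannot be assigned to adipocytes or to any other cell of the mouse, and the animals came from injected ES cell clones. The tissue was sequenced whole, so fewer cells of a type and less RNA per cell cannot be told apart. Library totals ran from 5431014 to 8214841 counts in the Axl KO group and from 5952427 to 9580215 in the WT group. Below, values by mouse follow the order of the replicate numbers. CPM values printed below are scaled to the total of the tested genes times a TMM factor per mouse, unlike those of the minimum above. Shares of counts are of the library total. Axl itself, which checks the labels, was counted 13, 13, 15, 3 and 9 times in Axl KO mice, against 383, 361, 357, 224 and 359 times in WT mice, a log2 fold change of −4.77 with a standard error (SE) of 0.20 (edgeR quasi-likelihood test, adjusted p = 1.09e-07). Brown adipocyte markers were present at a summed level of 6557 to 11647 CPM per mouse, whereas 0 of 10 B and T cell markers passed the 1 CPM minimum.

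Ribosomal proteins are made in near-equal numbers and assembled in the nucleolus with ribosomal RNA into the 40S subunit, which decodes mRNA, and the 60S subunit, which joins amino acids. Most of their mRNAs begin with a C followed by a run of pyrimidines, the 5′ terminal oligopyrimidine (TOP) motif, through which mTORC1 and LARP1 set how strongly they are translated, so that their protein output can change without a change in mRNA. Many of their promoters lack a TATA box. In brown fat, translation supplies the enzymes and uncoupling proteins of thermogenesis, while the mitochondrial ribosome, built from a separate set of proteins, makes the mitochondrially encoded subunits of the respiratory chain.

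Start sites of a few members are printed here, some with a pyrimidine run, some with a short motif found in other members and some with neither, to show how these genes differ at the start. Each is 30 bases of GRCm38.p6 from RefSeq, 15 before and 15 from the annotated start on, read 5′ to 3′ on the gene's strand. Capitals mark a C followed by at least 6 pyrimidines that begins within 5 bases of the start. Pyrimidines directly before the marked C stay in small letters, so a longer run can begin further upstream.
Rps6, chr4:86857353-86857382, reverse strand: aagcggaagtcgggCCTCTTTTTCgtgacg
Rpl7a, chr2:26910792-26910821, forward strand: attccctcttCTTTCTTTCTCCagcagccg
Rpl35, chr2:39005117-39005146, reverse strand: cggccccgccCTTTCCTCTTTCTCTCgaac
Rps27, chr3:90213634-90213663, reverse strand: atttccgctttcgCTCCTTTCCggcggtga
Rpl22l1, chr3:28805493-28805522, forward strand: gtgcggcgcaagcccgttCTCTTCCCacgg

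In the next 3, capitals mark CTCGCGAG or CCGGAAGT in place of the run.
Rps28, chr17:33824548-33824577, reverse strand: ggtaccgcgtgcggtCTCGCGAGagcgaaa
Rps19, chr7:24884577-24884606, forward strand: tccgaaatCTCGCGAGactcgacgcccgac
Rpl26, chr11:68901551-68901580, forward strand: ctcgcggcaacttacagaaCCGGAAGTcgc

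The last 2 hold none of these letters and belong to paralogues described below.
Rpl3l, chr17:24727811-24727840, forward strand: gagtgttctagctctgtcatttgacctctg
Rpl7l1, chr17:46782642-46782671, reverse strand: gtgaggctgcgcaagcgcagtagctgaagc

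RefSeq promoters of 300 bases, 250 before and 50 after the start, were at hand for 63 of the 83 members, with 75 promoters in all. The pyrimidine run lay at the start in 30.7% of them, compared with 6.48% of all 32851 promoters. Only runs by the rule above near annotated starts were counted, so this is not the share of mRNAs with a TOP motif. CGGAAG, the core of the ETS-family site and part of the longer CCGGAAGT, was found on either strand in 61.3% of member promoters and 16.9% of all promoters. CCGGAAGT itself was in 16% against 3.89%, CTCGCGAG in 10.7% against 0.919%, and AAGATGGC, the core of the YY1 site, in 10.7% against 2.75%. TATAAA, by contrast, was in 9.33% of member promoters and 13.6% of all, and CCAAT in 30.7% and 37.4%. These are matches of letters in the reference sequence, and no binding was measured.

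Ribosomal protein mRNAs made up close to 1% of the counts in both genotypes. Their share was 1.05, 1.14, 1.14, 0.996 and 0.969% in Axl KO replicates 1 to 5, and 1.07, 1.00, 1.12, 0.985 and 0.982% in WT replicates 1 to 5. The genotypes overlapped over nearly the whole range, and the highest and lowest shares were both in Axl KO mice. The mean was 1.06% ± 0.0795 for Axl KO and 1.03% ± 0.0622 for WT (SD, n = 5 each). The 95% Wilson interval of a single mouse, which covers counting error only, was 1.05 to 1.06% in Axl KO replicate 1 and thus far narrower than the spread between mice.

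The levels of the individual mRNAs ranged widely. Rpsa, the laminin-receptor-related protein of the 40S subunit, had the highest count of all 83, and Rpl27 the lowest among the 77 members that are no paralogue, with means of 387 and 36.7 CPM over the mice. Divided by the length of all annotated exons, the levels of these 77 ran from 12.6 to 482 CPM per kb, a 38.2-fold range, and the quartiles were 33.1 and 105. Rplp1, an acidic protein of the ribosomal stalk, stood at the top with 482, followed by Rps15 with 273, Rpl36 with 265, Rps29 with 237 and Rpl19 with 190. The 40S and 60S medians on this scale were 71.6 and 70.9. The order was nearly the same in each mouse, with a lowest rank correlation of 0.990 between any 2 of the 10 (a description, since all mice share gene lengths and annotation).

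The order and the distance between quartiles changed with the choice of length, and the full range less so. Rps15a, lowest of the 77, had 6270 bases of annotated exon and a principal transcript of 5179 bases, and Rpl35a, next to it with 16.9, rose to 122 when its principal transcript of 491 bases was used in place of 3526 bases of exon. With the principal transcript of every gene the quartiles were 98.8 and 222, a 2.24-fold distance against 3.17-fold with all exons. The full range was 31.5-fold against 38.2-fold, but Rps15a, with its long annotated lengths, set the low end of both. In CPM without division by length, the 77 ran from 36.7 to 387. Per kb of principal transcript, Rps29 had 422 and Rps27 312, while Rplp1 kept 482.

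**Figure D1:**
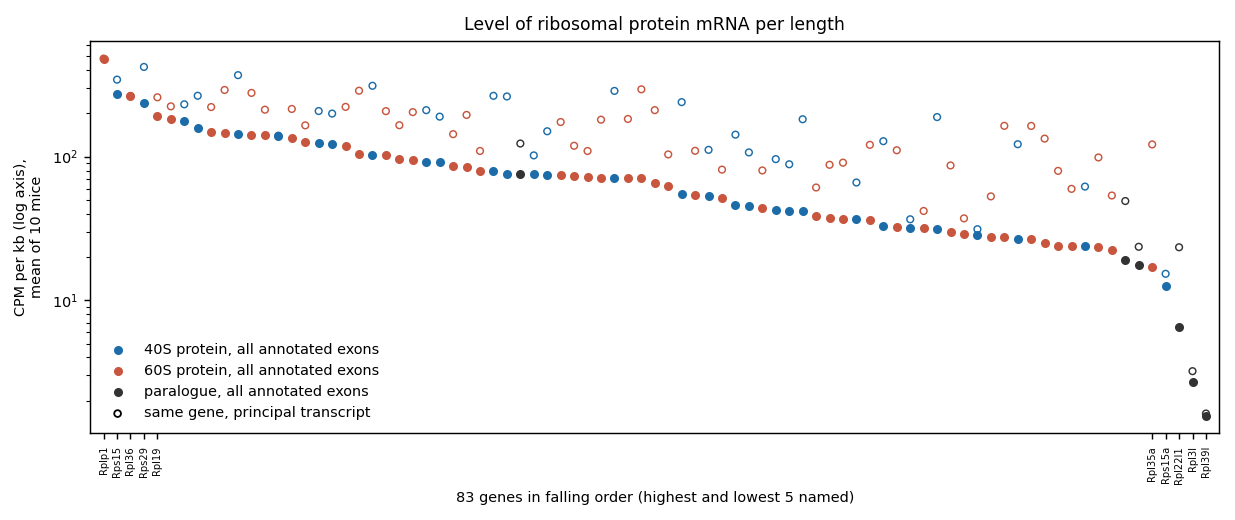
Mean level over 10 mice in CPM per kb on a log axis, for each of the 83 genes, with all annotated exons (filled) or the principal transcript (open) as length, coloured by subunit. Rplp1 is highest at 482 and the 5 lowest on the exon scale include 3 paralogues, and most open symbols lie above the filled ones.

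The number of reads that can be assigned to a ribosomal protein gene depends on its copies. Mammalian genomes hold many processed pseudogenes of these genes. Of the 50-base windows in each principal transcript, a median of 53.3% also occurred in another annotated gene, and in 18 members over 80% did. Rps27 had 98.6% of its windows in other genes, Rpl35 95.1%, Rpl5 93.8% and Rpl9 93.3%. Rpl3l and Rpl39l shared none. How the counting treated reads with several matches is not given in the sources used here, so the counts of the strongly shared genes are uncertain. The retrocopy Rps4l, annotated as a pseudogene and no member, had 1457 counts over the 10 mice, and the 15 copies with "-ps" in their symbol had 67.

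No ribosomal protein gene passed the test of genotype. In the edgeR fit, adjusted over all 13739 genes, 0 of 83 had an adjusted p under 0.05, the lowest being 0.572, and DESeq2 also called 0. The background was 0.00728% of all tested genes, which was Axl alone. At an unadjusted p under 0.05, 5 of 83 (6.02%) were higher in Axl KO and 0 lower, and among all tested genes 4.52% were higher and 3.86% lower, 8.38% in all. Fitted values were above 0 for 66 of the 83, whereas 49.7% of all tested genes had such a value. The median log2 fold change of the members was 0.045, a difference of 3.20%, beside −0.00078 for all tested genes.

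The subunits were close to each other. Of the 40S genes 25 of 31 had fitted values above 0, with a median of 0.056, and of the 60S genes 36 of 46, with a median of 0.034. Among the 77 members that are no paralogue, the log2 fold change ran from −0.094 for Rpl39 to 0.21 for Rps28, it was below 0.1 in size for 64, and the SE had a median of 0.069. The count of 66 does not stand for 66 separate observations, because the members moved together from mouse to mouse (below), and it fell to 45 without Axl KO replicate 2 and to 48 without WT replicate 5. Without Axl KO replicate 2 the 60S median was −0.0043.

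**Figure D2:**
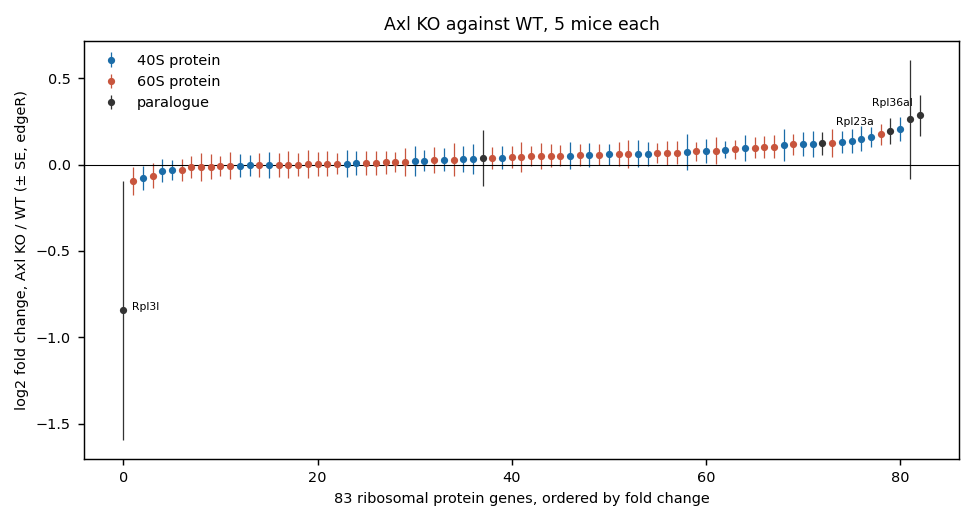
Log2 fold change of Axl KO over WT for the 83 genes in rising order (points, with bars of ± 1 SE from edgeR, 5 mice per genotype), coloured by subunit. Most points lie a little above 0 within about 1 or 2 SE, and the paralogue Rpl3l stands apart at −0.84 with a wide bar.

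Rpl23a, a 60S protein at the exit of the peptide tunnel (ENSMUSG00000058546, chr11:78180932-78183584, reverse strand), was the member with the lowest p. It had 119.0, 132.8, 134.3, 120.9 and 123.7 CPM in Axl KO replicates 1 to 5 and 115.9, 111.8, 117.6, 111.8 and 101.6 CPM in WT replicates 1 to 5. On this scale the lowest Axl KO value lay above the highest WT value, the only case without overlap among the 83. Across all tested genes, 0.728% were higher and 0.633% lower without overlap. Divided by library totals alone, the groups overlapped. WT replicate 3, with 1015 of 8371879 counts, then lay above Axl KO replicates 1 (770 of 6545778), 4 (829 of 6994231) and 5 (656 of 5431014). The log2 fold change was 0.18 (SE 0.059) and the adjusted p 0.572 by edgeR. The two-sided exact permutation p, unadjusted, was 0.00794, the smallest that 5 against 5 mice allow. Every gene without overlap reaches this p, so it only restates the separation on this scale. Other annotated genes held 85.7% of its 50-base windows.

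Rps28, a small 40S protein near the mRNA exit, had 83.5, 79.2, 71.4, 68.3 and 80.3 CPM in Axl KO and 69.2, 64.5, 67.2, 70.6 and 60.3 CPM in WT mice, with Axl KO replicate 4 within the WT range. Its log2 fold change was 0.21 (SE 0.069, edgeR adjusted p = 0.572).

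The members with the lowest p among those lower in Axl KO were Rpl39, Rpl3l, Rpsa, Rpl8 and Rps2, all far from the threshold. Rpl39, a short protein of the peptide tunnel, had 53.8, 52.4, 57.2, 53.2 and 43.2 CPM in Axl KO and 53.5, 59.0, 62.1, 51.3 and 51.7 CPM in WT mice, with overlapping groups (log2 fold change −0.094, SE 0.082, edgeR adjusted p = 0.763). Rpsa was at 376 ± 34.2 CPM with Axl KO and 397 ± 16.7 CPM with WT (SD, n = 5 each). Rpl8, which lies near the peptidyl transferase centre, was at 179 ± 13.7 and 187 ± 15 CPM, and Rps2, at the mRNA entry, at 287 ± 14.2 and 294 ± 13.0 CPM (SD, n = 5 each).

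Rplp0, also called 36B4, forms the base of the stalk and served the study as a qRT-PCR reference gene. It had 317.4, 342.3, 300.8, 291.8 and 275.7 CPM in Axl KO replicates 1 to 5 and 320.6, 285.3, 325.8, 294.4 and 289.9 CPM in WT replicates 1 to 5. The WT values all lay inside the Axl KO range. The log2 fold change was 0.011 (SE 0.070, edgeR adjusted p = 0.978), and leaving out single mice moved it between −0.032 and 0.045.

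Members moved together between mice of the same genotype. Relative to each gene's mean over the 10 mice on the log2(CPM + 1) scale, the median member stood at 0.014, 0.13, 0.076, −0.043 and −0.085 in Axl KO replicates 1 to 5 and at 0.068, −0.043, 0.069, −0.055 and −0.13 in WT replicates 1 to 5. In Axl KO replicate 2, 74 of 83 members were above their own mean, and in WT replicate 5, 1 of 83 was. The range over mice, 0.26, was thus several times the mean difference between the genotypes, 0.036.

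**Figure D3:**
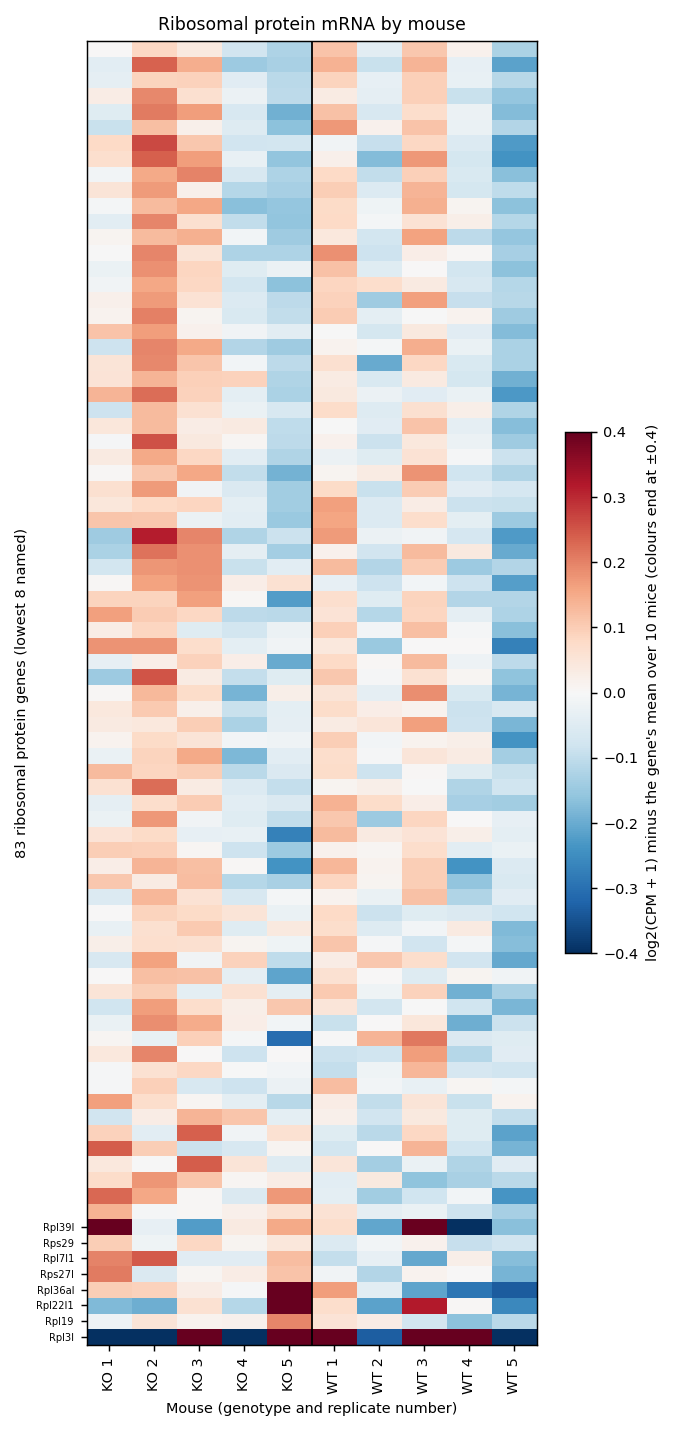
Difference of log2(CPM + 1) from the gene's mean over 10 mice for each of the 83 genes (rows, ordered by correlation with the median of the other members) and each mouse (columns, Axl KO left of the line). Axl KO replicates 2 and 3 and WT replicates 1 and 3 are mostly red and WT replicate 5 mostly blue, while the lowest rows, which hold the paralogues, do not follow these columns.

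Within genotype, the correlation between 2 members over the 10 mice had a median of 0.59 (3403 pairs, 91.3% above 0), and the median over all pairs of tested genes was −0.00049. Several marker lists co-varied at least as strongly. The median was 0.99 for muscle, 0.96 for erythroid, 0.79 for macrophage, 0.62 for endothelial and 0.60 for fibroblast markers. It was 0.33 for brown and −0.090 for white adipocyte markers. Among lists nearer in function, it was 0.33 for the mitochondrial ribosomal proteins and 0.18 for other TOP mRNAs and snoRNA host genes. Ribosome biogenesis genes had 0.081, translation factors 0.051, genes of mTORC1 and TOP mRNA control 0.034, and RNA polymerase I genes −0.0034. All values in such a comparison share the libraries and their normalization, and without TMM factors the member median was 0.69. Each member was also set against the median of the other 82: the median correlation was 0.81, and 68 of the 83 exceeded 0.5. All 68 were among the 77 that are no paralogue. The 6 paralogues had values from −0.045 to 0.20 and were among the lowest 8, together with Rpl19 at −0.0010 and Rps29 at 0.19. The paralogues also had fewer counts, with a median of 19.4 CPM against 116 CPM, and the part of the count level in these correlations was not tested.

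**Figure D4:**
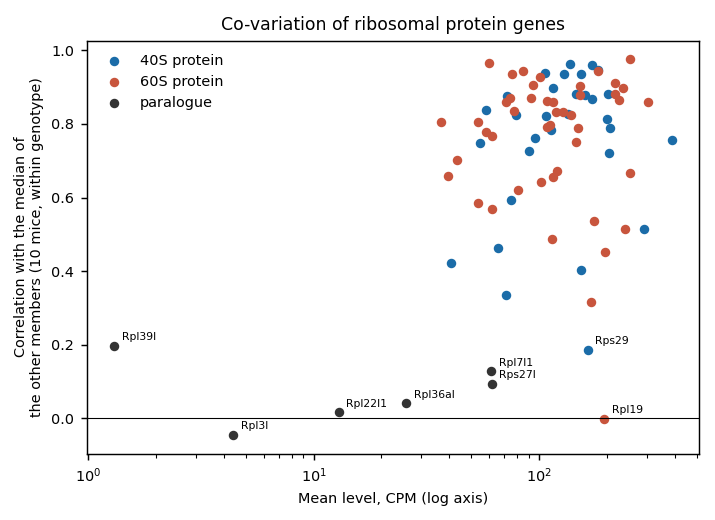
Correlation of each member with the median of the other members over 10 mice within genotype, against its mean level in CPM on a log axis, coloured by subunit. Most 40S and 60S genes lie above 0.5, and the 6 paralogues lie between −0.045 and 0.20.

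The paralogues were the members that differed most in level and spread. Rpl3l, a muscle-restricted relative of Rpl3, had 0.155, 0.151, 4.44, 1.31 and 9.99 CPM in Axl KO replicates 1 to 5 and 8.48, 2.23, 8.92, 6.55 and 1.89 CPM in WT replicates 1 to 5. The 10 skeletal muscle markers summed to 23.2, 5.27, 1621, 573 and 3118 CPM in the same Axl KO mice and to 3029, 785, 3721, 2924 and 753 CPM in the WT mice. The order of the 10 mice was the same for both, except that the top pair, Axl KO replicate 5 and WT replicate 3, changed places. The part of muscle tissue in the Rpl3l values was not tested. The log2 fold change of Rpl3l was −0.84 (SE 0.75, edgeR adjusted p = 0.766), and Rpl3 itself was at 235 ± 20.6 and 236 ± 14.3 CPM (SD, n = 5 each).

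Rpl7l1, a nucleolar relative of Rpl7, and Rpl36al, an autosomal relative of the X-linked Rpl36a, were also among the 5 members with an unadjusted p under 0.05. Rpl7l1 had 70.4, 72.7, 59.2, 59.2 and 66.8 CPM in Axl KO and 57.2, 59.7, 53.0, 62.2 and 54.2 CPM in WT mice (log2 fold change 0.20, SE 0.075, edgeR adjusted p = 0.572). Rpl36al had 27.4, 27.3, 26.0, 25.4 and 36.2 CPM in Axl KO and 28.7, 24.7, 21.9, 20.7 and 20.05 CPM in WT mice (log2 fold change 0.29, SE 0.12, edgeR adjusted p = 0.572). Both overlapped between the genotypes, and Axl KO replicate 5 stood out for Rpl36al. Per length of principal transcript, Rpl36al was at 48.7% ± 7.63 of Rpl36a in the Axl KO group and 40.2% ± 5.66 in the WT group (SD, n = 5 each).

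The proportions of the other pairs are given as values, without a test. Rpl3l was at 1.43% ± 1.95 of Rpl3 in the Axl KO group and 2.32% ± 1.35 in the WT group (SD, n = 5 each). Rps27l, a p53-responsive relative of Rps27, was at 39.4% ± 3.81 of its parent in Axl KO and 40.1% ± 1.38 in WT mice (SD, n = 5 each). Nearly all windows of Rps27 also occur in other genes, so its count and this proportion are uncertain. Rpl7l1 was at 12.7% ± 1.29 and 11.4% ± 0.903 of Rpl7, and Rpl22l1, whose protein can replace RPL22, at 14.6% ± 4.65 and 14.2% ± 1.43 of Rpl22. Rpl39l, best known from the testis, had 3 to 17 counts per mouse and was at 2.16% ± 0.805 and 1.57% ± 0.636 of Rpl39. Rpl22l1 had 11.1, 10.99, 13.3, 11.7 and 18.5 CPM in Axl KO and 13.4, 10.8, 16.1, 12.8 and 10.5 CPM in WT mice, with overlapping groups.

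Further genes of ribosome supply were counted in the same fit. Fau, which encodes a 40S protein under another symbol, and Rack1, a scaffold bound to the 40S subunit, had log2 fold changes of 0.049 and 0.051 (SE 0.069 and 0.080). Of 82 ribosome biogenesis genes 57 had fitted values above 0 (median 0.052), of 17 RNA polymerase I genes 14 (median 0.078), of 54 translation factors 34 (median 0.023) and of 36 genes of mTORC1 and TOP mRNA control 22 (median 0.015). No gene of these lists had an adjusted p under 0.05 (edgeR). At an unadjusted p under 0.05, 4 biogenesis genes were higher (4.88%) and 1 lower (1.22%), 2 polymerase I genes were higher (11.8%) and 0 lower, 4 translation factors were higher (7.41%) and 2 lower (3.70%), and 3 control genes were higher (8.33%) and 2 lower (5.56%). Over all tested genes the shares were 4.52% higher and 3.86% lower.

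Among the control genes, Sesn3, a sestrin that restrains mTORC1, had the lowest p of those lower in Axl KO, at 35.3 ± 2.64 against 43.4 ± 2.05 CPM (SD, n = 5 each), a log2 fold change of −0.30 (SE 0.065). Lamtor1, which anchors mTORC1 at the lysosome, was at 110 ± 12.2 against 92.6 ± 7.09 CPM (SD, n = 5 each), a log2 fold change of 0.25 (SE 0.082). Both had an adjusted p of 0.572 by edgeR. Of 33 other TOP mRNAs and snoRNA host genes 15 had fitted values above 0, with a median of −0.0079. From mouse to mouse, however, the median of this list correlated with that of the members at 0.89. The same value was 0.84 for 3 ribosomal protein genes with other symbols, 0.76 for white adipocyte and 0.60 for fibroblast markers. It was −0.47 for the mitochondrial ribosomal proteins and −0.48 for brown adipocyte markers, and the remaining lists lay between −0.31 and 0.47. The white adipocyte value rests on 4 genes that did not vary together (median pairwise correlation −0.090). Single genes among the other TOP mRNAs and snoRNA host genes had a median correlation of 0.39.

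The mitochondrial ribosomal proteins were set beside the cytosolic ones mouse by mouse. Of the 78, 71 (91.0%) had fitted values above 0, beside 49.7% of all tested genes, with a median log2 fold change of 0.11. An unadjusted p under 0.05 was found for 15 (19.2%), all higher in Axl KO, beside 4.52% of all tested genes higher and 3.86% lower. None had an adjusted p under 0.05 (edgeR). These counts do not stand for separate observations either, because these genes also moved together (median pairwise correlation 0.33). In Axl KO replicate 5, 68 of the 78 were above their own mean. By mouse, their median stood at 0.10, −0.0048, −0.076, 0.056 and 0.17 in Axl KO replicates 1 to 5 and at −0.049, −0.019, −0.076, −0.0090 and −0.10 in WT replicates 1 to 5. Axl KO replicate 5 had the highest mitochondrial and the lowest cytosolic value of its group, and Axl KO replicate 3 the lowest mitochondrial value and a cytosolic value above 0. WT replicate 5 had the lowest value of all 10 mice in both sets on this scale. By share of library counts, Axl KO replicate 5 was lowest for the cytosolic set, at 0.969% against 0.982% in WT replicate 5. The difference between the sets was not tested.

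Markers of other cells moved between the same mice. The 8 fibroblast markers summed to 473 to 793 CPM in Axl KO and 687 to 911 CPM in WT mice, all 8 with fitted values below 0, and their median deviation was lowest in Axl KO replicates 4 and 5, at −0.51 in both, which were also the 2 Axl KO mice with the lowest ribosomal protein medians. WT replicate 5, with the lowest ribosomal protein median of all 10 mice on the TMM-scaled values, stood at 0.17 for the fibroblast markers. The 10 brown adipocyte markers had 9 fitted values above 0 and were highest in Axl KO replicate 5. The 10 muscle markers all had fitted values below 0, the 9 macrophage markers 4 above 0 (147.7 to 271 CPM in Axl KO and 166 to 253 CPM in WT mice), the 7 endothelial markers 3 and the 5 erythroid markers 3. Of 8 white adipocyte markers 4 were tested, 1 of them above 0, and Hoxc9 and Wt1 were at 0. The part of these cells in the ribosomal protein values was not tested.

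**Figure D5:**
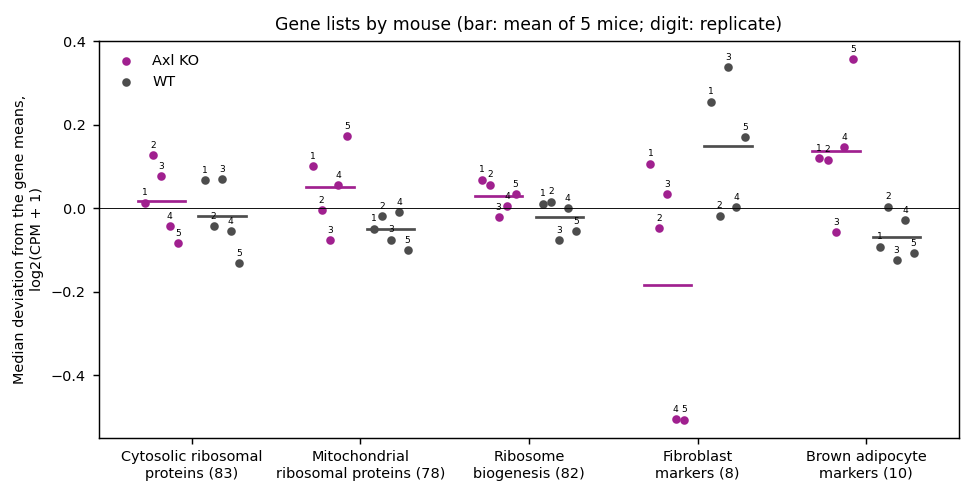
Median deviation of 5 gene lists from the gene means in each mouse on the log2(CPM + 1) scale (points, numbered by replicate; bars are means of 5 mice). Cytosolic ribosomal proteins of both genotypes spread over the same range, and Axl KO replicate 5 is low for them and for fibroblast markers and high for mitochondrial ribosomal proteins and brown adipocyte markers.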

How the data were processed

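RNA of whole iBAT was sequenced from 5 Axl KO and 5 WT mice. The authors deposited 1 table of raw counts per gene and mouse, without normalization. The paper names Trim Galore and hisat2 with GRCm38, and the submitters' processing notes name Trimmomatic 0.36, STAR 2.6.1c and GRCm38.p5. The counting tool and its strand setting are not given in the sources used here. The labels name polyadenylated RNA and the paper rRNA depletion, and the paper's diet timing differs from that of the labels, which is used here. Identifiers were matched to GENCODE M21 (41163 of 41249).

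Genes with a mean above 1 CPM were tested with edgeR 4.0.16 in R 4.3.3 (TMM, quasi-likelihood, no covariate, Benjamini-Hochberg adjustment over 13739 genes, threshold 0.05). DESeq2 1.42.0 was an alternative. Single genes were also compared by two-sided exact permutation of log2(CPM + 1). The coefficient of variation in the model was 14.8%. Any 2 mice of a group differed by a chi-square of at least 5.74 per gene. The members and gene lists were chosen with earlier results of these data known. Named are Axl and, of the members, the 5 with the lowest p in each direction, the 5 highest and 5 lowest per kb, the 3 most variable, those without overlap, Rplp0 and the paralogues with their parents, and of other lists up to 2 genes with the lowest p in each direction. Some genes that this rule names are not reported here. Scripts were tested on simulated data. Replicates are separate mice and were treated as unpaired.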

Additional observations from a re-analysis of the deposited data

Results flagged for a closer look

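In 3 of 60 groups of 5 mice, 1 mouse lay far from the other 4 by Dixon's gap test, and chance gives about 3. Rpl36al was at 36.2 CPM in Axl KO replicate 5, where the nearest Axl KO mouse had 27.4 CPM. Its log2 fold change was 0.19 without that mouse and 0.29 with it. Rps2 was at 316.7 CPM in WT replicate 1, next to 292 CPM in the nearest WT mouse. Axl was at 0.438 CPM in Axl KO replicate 4, with 3 counts, next to 1.70 CPM.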

How the results depend on the processing

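No ribosomal protein gene was called under any of 18 alternatives run (lowest adjusted p 0.20), and Axl was called under all of them. DESeq2 called 9 genes in place of 1, none of them a member. Leaving out 1 mouse in turn, members at an unadjusted p under 0.05 numbered 4 (without WT replicate 4) to 8 (without Axl KO replicate 5), against 5. Members with fitted values above 0 numbered 45 to 76, against 66, and the median log2 fold change was 0.020 to 0.069 for all members, 0.024 to 0.087 for 40S and −0.0043 to 0.056 for 60S genes. The median level was 65.1 CPM per kb with all exons, 99.2 with the longest transcript and, chosen after seeing the data, 142 with the principal transcript. Co-variation, also chosen after seeing the data, gave 0.54 to 0.63 with 1 mouse left out. Of 28 named members, 20 kept their sign under the alternatives that gave them a value (Rpl39l had none with filterByExpr, and no adjusted p with DESeq2), and 8 with values near 0 changed it without single mice, ranging from −0.11 to 0.14 for Rpl22l1, −0.029 to 0.070 for Rpl35a, −0.032 to 0.045 for Rplp0, −0.043 to 0.035 for Rpl3, −0.0058 to 0.084 for Rpl22, −0.027 to 0.069 for Rpl36a, −0.033 to 0.026 for Rpl10 and −0.044 to 0.046 for Rps4x. Same-numbered mice correlated at −0.18, 0.37, 0.03, 0.03 and −0.36. Differently numbered pairs were not compared, so these values cannot tell whether the numbers pair mice. With the replicate block, 6 members had an unadjusted p under 0.05 and the median log2 fold change was 0.044. Mice with few counts of a gene limit Rpl39l and Rpl3l.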
